A study of Mus musculus with 24 samples.

Results

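The miR-10 microRNAs of the Hox clusters were followed in the mouse lung after birth. The array carried 3 names that fall under the selection, mmu-miR-10a, mmu-miR-10a* and mmu-miR-10b, out of 650 names in all, and they were taken by name alone. MicroRNAs (miRNAs) are RNAs of about the length of a small hairpin arm that pair with messenger RNAs and lower their output. Total RNA from whole lungs of healthy C57BL/6 mice, with no treatment or altered gene given, was labelled with the dye Cy3 and read on 24 Agilent miRNA arrays of 1 colour. There were 5 arrays each at day 1, day 4, day 7 and day 14 after birth and 4 arrays at day 42, which the labels call 6 weeks. The title of the study speaks of fetal lungs, whereas all labels give postnatal ages, and those were used. The labels call the arrays of an age biological replicates without saying whether each came from 1 animal, so the p-values measure the spread between these samples.

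The miR-10 genes lie inside the Hox gene clusters, whose transcription factors set position along the body axis, and their miRNAs are among the oldest in animals. Messages of Hox genes are among their known targets, and in zebrafish miR-10 is needed for the sprouting of blood vessels. A miRNA hairpin is cut into 2 arms, one of which is usually kept, while the other, marked here with an asterisk, is mostly lost. Bases 2 to 8 of a mature miRNA, its seed, carry most of the pairing with targets.

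Sequences and places are those of RefSeq for GRCm38.p6. All 9 array names looked up there were found. The mature sequences of the 3 names, with that of the opposite arm of miR-10b, are shown because the near-identity of miR-10a and miR-10b bears on every comparison between them. They run 5′ to 3′ with the seed in capitals.

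miR-10a: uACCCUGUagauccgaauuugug
miR-10b: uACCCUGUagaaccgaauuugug
miR-10a*: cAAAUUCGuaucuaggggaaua
miR-10b*: cAGAUUCGauucuaggggaaua

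Over their 23 bases miR-10a and miR-10b differed at 1 position, U12A, counted from the 5′ end with the base of miR-10a first. Their seed was the same, and of the 1679 mature names in the table only these 2 held it. The opposite arms differed at 3 of 22 positions, A3G, U9A and A10U with the base of miR-10a* first, and the first of these lies in the seed. A probe for miR-10a and one for miR-10b can therefore bind each other's target, and how much of either signal came from the other miRNA was not tested.

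The hairpins from which they are cut are given with both mature arms in capitals.

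Mir10a: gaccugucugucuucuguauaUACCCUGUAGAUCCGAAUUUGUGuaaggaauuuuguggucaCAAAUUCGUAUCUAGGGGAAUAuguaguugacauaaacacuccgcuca
Mir10b: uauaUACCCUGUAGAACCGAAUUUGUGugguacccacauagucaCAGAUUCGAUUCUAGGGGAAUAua

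Mir10a is on the plus strand at chr11:96317165-96317274, 110 bases, within the span of Hoxb3 and 993 bases before Hoxb4 (chr11:96318267-96321638). Mir10b is on the plus strand at chr2:74726070-74726137, 68 bases, within the spans of both Hoxd3 (chr2:74711993-74748271) and Hoxd4 (chr2:74721978-74729160). The table used gives gene spans, so whether a hairpin lies in an exon or an intron is not given here.

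The signal of a miRNA is the sum of its probes after background subtraction, divided by a brightness factor of its array and given on the log2 scale. That factor is the upper quartile, at the 75th percentile, of the signals of 228 miRNAs that no array failed to detect. It ranged from 923 to 4954 intensity units, the arrays detected 266 to 348 miRNAs each, and no spot was saturated. All arrays carry 1 scan day and lie on 3 slides of 8, each with 1 or 2 arrays of every age. Names that all arrays of some age had detected, 322 in number, were tested with limma, and a difference was called at an adjusted p under 0.05. Signals depend on the probe, so only changes of a miRNA between ages are compared, never its level with that of another. Markers of many lung cell types were measured, as whole lung should give. In such bulk samples, fewer cells of a type and less RNA per cell cannot be told apart.

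All 3 miR-10 names were higher at day 42 than at day 1: miR-10a by 1.84-fold, miR-10a* by 1.65-fold and miR-10b by 1.44-fold. Across days 1 to 14 miR-10a and miR-10b gave no call, while miR-10a* was called higher at day 14 than at day 1. The miR-10a* call was lost without the 5 dimmest arrays, and its value turned in sign with normexp background correction. miR-10a was called higher there in 5 alternative settings, among them the one without the 5 dimmest arrays (0.59, limma adjusted p = 0.0266). The change of miR-10a* minus that of miR-10a there was 0.20 on the log2 scale and was not called (exact permutation test, adjusted over 18 tests p = 0.686). The 2 arms are thus not shown to differ at day 14. The rises of miR-10a and miR-10a* at day 42 over day 1 held without any single array, whereas that of miR-10b rested on 2 of the 4 arrays of day 42. With normexp, however, miR-10a* was at -1.26 at day 42 against day 1 and called lower, where the median of all miRNAs tested was -1.17. At day 42 against day 1, 61.8% of the miRNAs tested were called, 18.9% as higher and 42.9% as lower.

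miR-10a is the arm kept from the hairpin in the Hoxb cluster. It was detected on 24 of 24 arrays, with all 20 of its spots well above background on each. Its log2 signals were 11.36, 10.81, 11.08, 11.46 and 11.50 at day 1, then 11.95, 11.48, 11.88, 11.12 and 11.18 at day 4, and 11.31, 11.29, 11.30, 11.54 and 11.36 at day 7. They were 11.59, 11.73, 11.50, 11.39 and 11.46 at day 14 and 11.99, 11.87, 11.83 and 12.79 at day 42. Every array of day 42 lay above every array of days 1 and 14, and 3 arrays of day 42 lay close together with the array of replicate 4 well above them. At day 4, 3 arrays were at 11.48 or higher and 2 lay below every array of days 7 and 14, within the range of day 1. The means were 11.24 ± 0.29, 11.52 ± 0.38, 11.36 ± 0.11, 11.54 ± 0.13 (SD, n = 5 each) and 12.12 ± 0.45 (SD, n = 4) in order of age.

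At day 42 miR-10a was higher than at day 1 by 0.88 ± 0.20 on the log2 scale (SE, 95% interval 0.46 to 1.29, limma adjusted p = 0.000583), and the groups did not overlap, as was true of 39.8% of the miRNAs tested. The change ranked 34 of 322 from the top. It was 0.94 with the slide as a block, and 0.46, 1.098 and 1.502 within the 3 slides. Against day 14, where 32.6% of the miRNAs tested were called and 4.66% as higher, it was 0.58 ± 0.20 (SE, limma adjusted p = 0.0275), rank 13 of 322, again with no overlap, which 29.8% of the miRNAs showed. This second call was lost without replicate 4 of day 42, at 0.36 (limma adjusted p = 0.153), and without replicate 4 or replicate 5 of day 14, at 0.55 and 0.56. Within the 3 slides the step was 0.38, 0.17 and 1.31.

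The earlier steps of miR-10a gave no call. Day 14 minus day 1 was 0.29 ± 0.19 (SE, limma adjusted p = 0.181) in a comparison that called 53.7% of the miRNAs tested, and day 14 minus day 7 was 0.18 (limma adjusted p = 0.531) where 31.4% were called. Day 4 minus day 1 was 0.28 (limma adjusted p = 0.480) and day 7 minus day 4 was -0.16 (limma adjusted p = 0.725), and these 2 steps called only 1.55% and 0.311% of the miRNAs tested. The F-test over the 5 ages, which called 65.5%, passed for miR-10a (limma adjusted p = 0.00616).

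**Figure D1:**
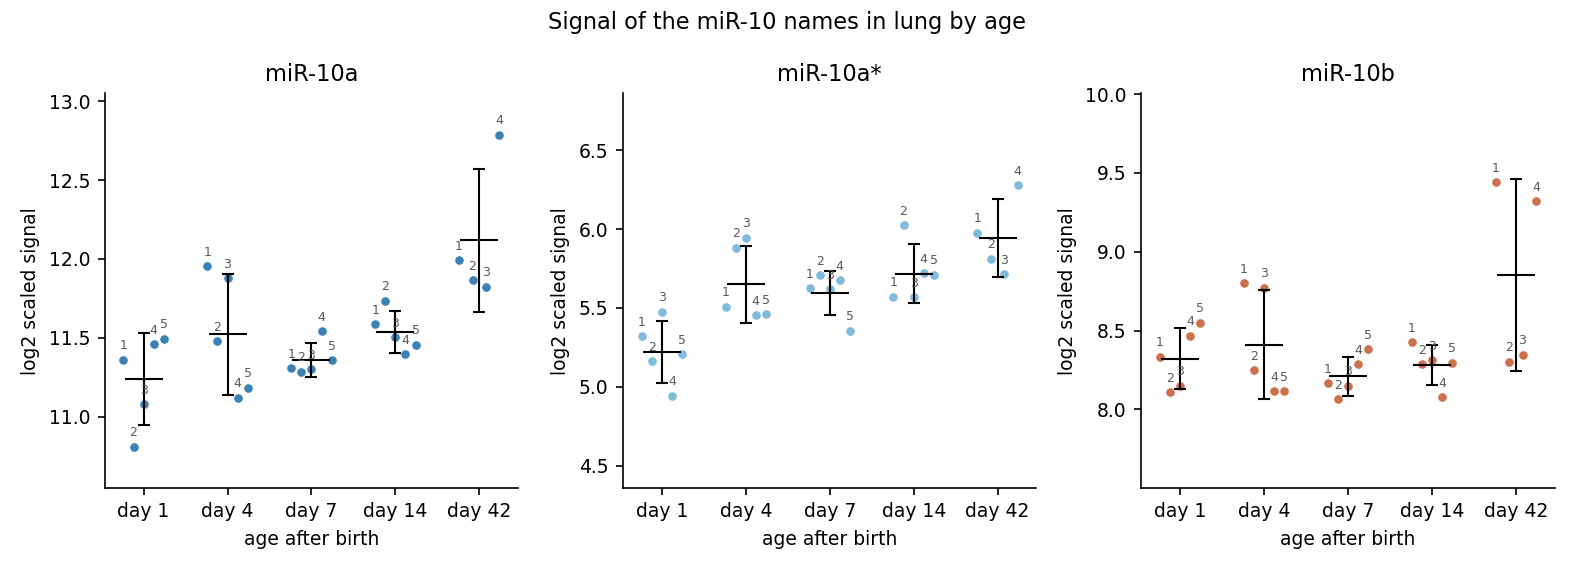
Log2 scaled signal (vertical axes, each 2.5 log2 units high) of miR-10a, miR-10a* and miR-10b by age after birth. Each point is 1 array with its replicate number, and the black bars give the mean and SD (n = 5 per age, 4 at day 42). The arrays of day 42 lie above all of day 1 for miR-10a and miR-10a*, and for miR-10b only replicates 1 and 4 stand above the other ages.

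miR-10a* is the other arm of the same hairpin and was dim. It was detected on 23 of 24 arrays, missing on replicate 4 of day 1, with 0 to 13 of its 20 spots well above background. Its log2 signals were 5.32, 5.16, 5.47, 4.94 and 5.21 at day 1, then 5.51, 5.88, 5.94, 5.45 and 5.46 at day 4, and 5.62, 5.71, 5.62, 5.68 and 5.35 at day 7. They were 5.57, 6.03, 5.57, 5.72 and 5.71 at day 14 and 5.98, 5.81, 5.71 and 6.28 at day 42. All arrays of days 14 and 42 lay above all of day 1, a lack of overlap found in 35.4% and 39.8% of the miRNAs tested. Days 4, 7 and 14 overlapped one another, and day 42 overlapped days 4 and 14. The means were 5.22 ± 0.20, 5.65 ± 0.24, 5.60 ± 0.14, 5.72 ± 0.19 (SD, n = 5 each) and 5.94 ± 0.25 (SD, n = 4) in order of age.

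The difference at day 42 from day 1 was 0.72 ± 0.15 (SE, 95% interval 0.42 to 1.03, limma adjusted p = 0.000219), rank 46 of 322, and it was 0.68, 0.68 and 0.94 within the 3 slides. Day 14 was above day 1 by 0.50 ± 0.14 (SE, limma adjusted p = 0.00494), with no overlap, as for 35.4% of the miRNAs tested, and 21.1% were called as higher. Within the slides this was 0.51, 0.86 and 0.30, and without the 5 dimmest arrays it was 0.40 and no longer called (limma adjusted p = 0.0762). Both rises turned to falls, -1.26 and -0.65, when the background was modelled by normexp in place of the scanner software's subtraction. Under that setting the median of all miRNAs tested was itself at -1.17 for day 42 against day 1. Normexp was run with an offset of 50, whose part in these falls was not tested. Day 4 minus day 1 was 0.43 (limma adjusted p = 0.159) and day 42 minus day 14 was 0.23 (limma adjusted p = 0.285). Day 7 minus day 4 was -0.05 and day 14 minus day 7 was 0.12, neither called. The F-test passed (limma adjusted p = 0.00286).

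miR-10b is the arm kept from the hairpin in the Hoxd cluster. It was detected on all 24 arrays with 20 of 20 spots well above background. Its log2 signals were 8.34, 8.11, 8.15, 8.47 and 8.55 at day 1, then 8.80, 8.25, 8.77, 8.12 and 8.12 at day 4, and 8.17, 8.07, 8.15, 8.29 and 8.38 at day 7. They were 8.43, 8.29, 8.31, 8.08 and 8.30 at day 14 and 9.44, 8.30, 8.35 and 9.32 at day 42. The arrays of day 42 formed 2 pairs, replicates 1 and 4 above every array of the other ages and replicates 2 and 3 among those of day 1. The means were 8.32 ± 0.19, 8.41 ± 0.35, 8.21 ± 0.12, 8.28 ± 0.13 (SD, n = 5 each) and 8.85 ± 0.61 (SD, n = 4) in order of age.

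The model called miR-10b higher at day 42 than at day 1, by 0.53 ± 0.21 (SE, 95% interval 0.10 to 0.97, limma adjusted p = 0.0322), with overlapping groups. The value was 0.33 without replicate 1 (limma adjusted p = 0.175), 0.37 without replicate 4 (limma adjusted p = 0.131) and 0.00 without both (limma adjusted p = 0.991), the last a choice made after the values were seen. It was also lost without replicate 2 of day 1, at 0.48, and without replicate 3 of day 1, at 0.49. Within the 3 slides it was -0.10, 0.78 and 0.97. With normexp it was -0.15, where the median of all miRNAs tested was -1.17. The step over day 14, 0.57 ± 0.21 (SE, limma adjusted p = 0.0400), rested on the same arrays and was 0.05 without replicates 1 and 4. It also missed the threshold without any 1 of replicates 2 to 5 of day 14, at 0.52 to 0.58. Within the 3 slides that step was 0.05, 0.61 and 1.013.

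No earlier step of miR-10b was called. Day 14 minus day 1 was -0.04 ± 0.20 (SE, 95% interval -0.45 to 0.37), day 4 minus day 1 was 0.09, day 7 minus day 4 was -0.20 and day 14 minus day 7 was 0.07. The F-test over the ages missed the threshold (limma adjusted p = 0.0718).

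On the 2 arrays of day 42 with high miR-10b, other miRNAs stood apart in different ways. Replicate 4, the dimmest array of its age with a brightness factor of 1727, also had the highest miR-10a and miR-10a*, and the endothelial list averaged 11.69 there, against 11.002, 10.89 and 11.23 on the arrays of replicates 1 to 3. Other lists stood apart there too. The miR-99, miR-100 and miR-125 names averaged 10.49, against 9.83, 9.55 and 9.45, and the mesenchymal list 11.04, against 10.56, 10.32 and 10.45, whereas the multiciliated and striated muscle lists were at their lowest, 8.25 and 7.27. Replicate 1 had the highest level of the red blood cell list, 12.37, against 11.86, 11.58 and 10.68 on replicates 2 to 4, and of the leukocyte list, 10.78, against 10.32, 10.38 and 10.46. The part of these differences in the miR-10b values was not tested.

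The order of the mean levels over the ages was day 1, day 7, day 4, day 14 and day 42 for both arms of Mir10a. For miR-10b it was day 7, day 14, day 1, day 4 and day 42. In exact permutation tests of the 12 neighbouring steps in these orders, none passed after adjustment. The smallest exact p possible was 0.00794, or 0.0159 for steps with day 42. A single step could therefore not pass over 12 tests, even without overlap. The neighbours were also chosen by the same means. The lowest adjusted p was 0.0952 (unadjusted exact p = 0.0159), for miR-10a at day 42 over day 14 by 0.58 and for miR-10a* at day 7 over day 1 by 0.38.

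The size of each rise depends on how the arrays are brought to one scale. The median change of all miRNAs tested, day 42 minus day 1, was -0.35 here and between 0.01 and 0.64 under the 5 other scalings, the authors' table included. The share of calls that were higher was 30.7% here and 51.3% to 71.4% under those. Relative to that median, the change from day 1 to day 42 lay between 0.49 and 1.24 for miR-10a, 1.078 and 1.63 for miR-10a*, and 0.55 and 0.90 for miR-10b over the 6 scalings. For day 14 against day 1 the same measure lay between 0.19 and 0.49 for miR-10a, 0.67 and 1.044 for miR-10a*, and -0.05 and 0.16 for miR-10b. The direction at day 42 was thus upward for the 3 names under all 6 scalings, on both measures. With normexp the changes of miR-10a* and miR-10b were below 0, as given above. Relative to the normexp median of -1.17, miR-10a* was at -0.09 and miR-10b at 1.02.

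**Figure D2:**
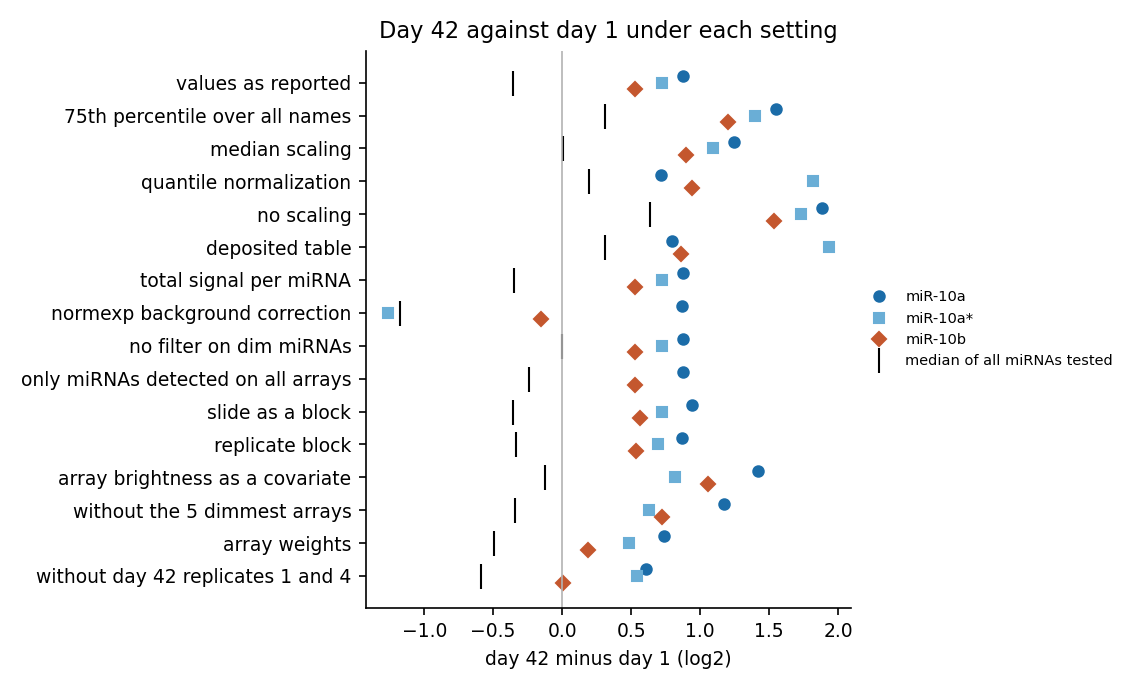
Day 42 minus day 1 on the log2 scale (horizontal axis) for the 3 miR-10 names under each setting, with the median of all miRNAs tested as a vertical tick. The points of miR-10a keep to the right of 0 in all rows, miR-10a* lies left of 0 only with normexp, and miR-10b lies at 0 without replicates 1 and 4 of day 42 and left of 0 with normexp.

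A difference between miR-10 names on the same array is free of the array's brightness factor, so it shows whether they changed by unequal amounts. In all, 18 such tests were made, 3 pairs over 6 comparisons of ages, and none passed after adjustment. The smallest exact p possible was 0.00794, or 0.0159 with day 42, so a single difference could not pass even without overlap. The lack of a call therefore does not show that the names changed by equal amounts.

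miR-10b minus miR-10a was -3.02, -2.70, -2.93, -2.99 and -2.95 at day 1, -3.15, -3.23, -3.11, -3.00 and -3.07 at day 4, and -3.14, -3.22, -3.15, -3.26 and -2.98 at day 7. It was -3.16, -3.45, -3.19, -3.32 and -3.16 at day 14 and -2.55, -3.56, -3.48 and -3.47 at day 42. All arrays of day 14 were below all of day 1, and at day 42 replicate 1 stood far above the others. The means were -2.92 ± 0.13, -3.11 ± 0.09, -3.15 ± 0.11, -3.25 ± 0.13 (SD, n = 5 each) and -3.27 ± 0.48 (SD, n = 4) in order of age, and the day 42 mean was -3.50 ± 0.05 without replicate 1 (SD, n = 3). The log2 signal of miR-10b thus lost 0.34 relative to miR-10a by day 14 against day 1 (exact permutation test, two-sided p = 0.00794, the smallest this design allows, adjusted over 18 tests p = 0.143). At day 4 against day 1 the change was -0.19 (exact p = 0.0159, adjusted p = 0.143) and at day 42 against day 1 it was -0.35 (exact p = 0.0952, adjusted p = 0.343).

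The log2 difference of miR-10a* and miR-10a, the 2 arms of 1 hairpin, averaged -6.02 ± 0.40, -5.87 ± 0.34, -5.76 ± 0.17, -5.82 ± 0.15 (SD, n = 5 each) and -6.17 ± 0.23 (SD, n = 4) in order of age. Single arrays ranged from -6.52 to -5.58 over the series, so the spread within day 1 alone was wider than any step between ages. Day 42 lay below day 14 by 0.36 (exact permutation test, two-sided p = 0.0317, adjusted over 18 tests p = 0.143), and day 42 minus day 1 was -0.15 (exact p = 0.508, adjusted p = 0.686). With quantile normalization, which does not keep differences within an array, this last value was 1.1002 (adjusted p = 0.0952). With normexp it was -2.13 (adjusted p = 0.0408), so its sign and its call differed between settings. Normexp was run with an offset of 50, and miR-10a* had mean scaled signals of 37.6 at day 1 and 62.3 at day 42. The brightness factors were 923 to 2183 at day 1 and 1727 to 4151 at day 42. The part of the offset and of these factors in the normexp value was not tested.

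**Figure D3:**
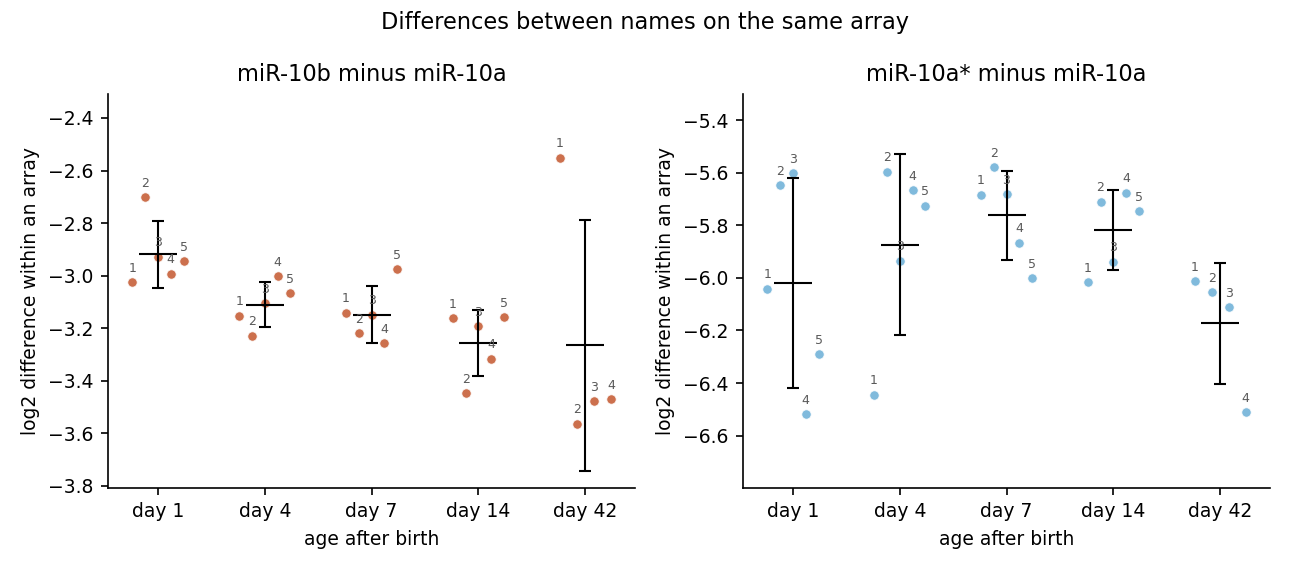
Log2 difference within an array (vertical axes) of miR-10b minus miR-10a and of miR-10a* minus miR-10a by age after birth. Points are arrays with their replicate numbers, and bars the mean and SD (n = 5 per age, 4 at day 42). In the left panel all of day 14 lies below all of day 1, and replicate 1 of day 42 stands apart at -2.55.

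The probes of each name were also followed singly, as separate measures of the same miRNA. Both probes of miR-10a rose alike, with day 42 above day 1 by 0.85 and 0.89, and their difference within an array stayed between 1.31 and 1.48 on all 24 arrays. The probes of miR-10b moved less alike. Day 42 minus day 1 was 0.30 for the dimmer probe and 0.59 for the brighter one, and day 14 minus day 1 was -0.22 and 0.00. Their difference within an array averaged 1.86 ± 0.13, 2.030 ± 0.03, 2.058 ± 0.08, 2.079 ± 0.12 (SD, n = 5 each) and 2.15 ± 0.15 (SD, n = 4) in order of age. Replicates 1 and 4 of day 42 were high on both probes of miR-10b, with 7.15 and 6.90 against 5.73 and 5.84 for replicates 2 and 3 on the dimmer probe, and 9.11 and 9.020 against 8.038 and 8.068 on the brighter one. The 2 brightest of the 4 probes of miR-10a* showed day 42 above day 1 by 0.62 and 0.61, and day 14 above day 1 by 0.33 and 0.35. Both were below the changes of the summed signal, 0.72 at day 42 and 0.50 at day 14. The other 2 had day 1 means below the floor of 7.46 scaled units, so no log2 change is given for them. They are nonetheless part of the sum. Their mean scaled signals were 0.45 and 3.92 at day 1, 2.33 and 9.01 at day 14, and 1.97 and 9.57 at day 42. The rises reported for miR-10a* thus include signal from probes near or below the floor.

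**Figure D4:**
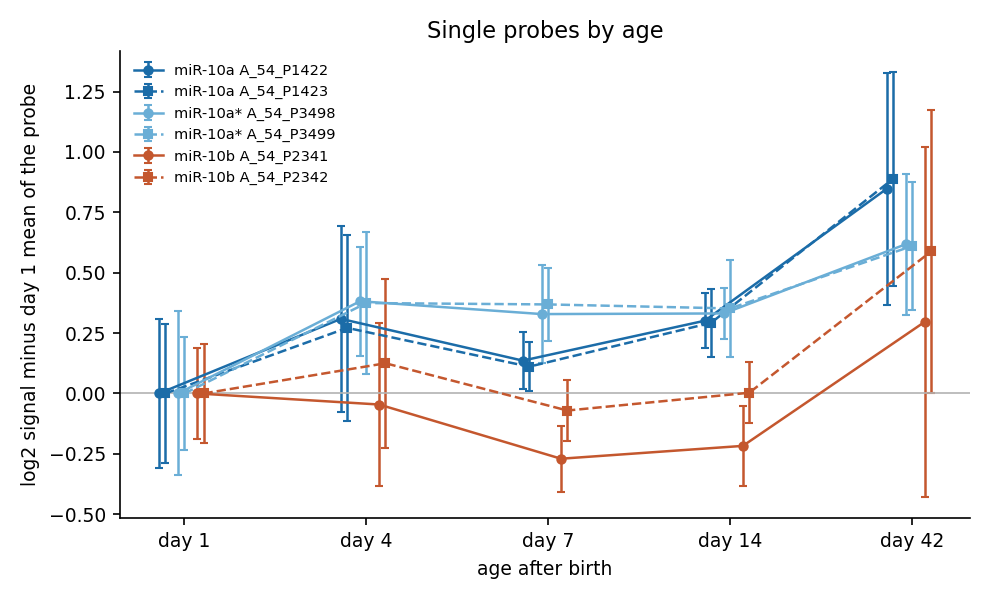
Log2 signal of single probes minus the same probe's mean at day 1 (vertical axis) by age after birth, for the 2 probes of miR-10a, the 2 of miR-10a* with a day 1 mean above the floor, and the 2 of miR-10b. Points are means over the arrays of an age and bars the SD (n = 5, 4 at day 42). The lines of miR-10a run together, whereas the dimmer probe of miR-10b lies below its brighter one at all later ages.

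Other miRNAs of the Hox clusters were not tested, since none passed the detection flag. Of 8 names listed, 6 were on the array, and all 6 were detected on 0 of 24 arrays: miR-10b*, miR-196a, miR-196a*, miR-196b, miR-615-3p and miR-615-5p. The dim signal of miR-196a was nonetheless above the floor on all arrays of day 1, with a mean log2 signal of 4.085, and at the floor of 2.90 on all 4 arrays of day 42. The brightness factors were 923 to 2183 at day 1 and 1727 to 4151 at day 42, and their part in this was not tested. For miR-10b*, at most 2 of 20 spots were well above background on any array.

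The miR-99 and miR-100 miRNAs resemble miR-10 in sequence and, with the miR-125 miRNAs, which do not, lie outside the Hox clusters beside let-7 genes. miR-99a, miR-99b and miR-100 share a seed, ACCCGUA, that differs from that of miR-10, and are alike in much of the rest, as these lines show with the seeds in capitals.

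miR-100: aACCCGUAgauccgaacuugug
miR-99a: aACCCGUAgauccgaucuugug
miR-99b: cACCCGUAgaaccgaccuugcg

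Of the last 15 bases, miR-100 shared 14 with miR-10a, miR-99a 13, miR-99b 11, miR-125b-5p 4 and miR-125a-5p 3. Of 11 names of these families listed, 9 were on the array and 7 were tested. At day 42 against day 1, 3 were called higher and 3 lower, against 18.9% and 42.9% of the miRNAs tested. The list median was -0.37 against -0.35 over all miRNAs tested. miR-100 rose by 1.39 ± 0.19 (SE, limma adjusted p = 1.4e-06), miR-125b-5p by 1.11 ± 0.26 (SE, limma adjusted p = 0.000718) and miR-99a by 0.71 ± 0.18 (SE, limma adjusted p = 0.0017), each upward under the 6 scalings and normexp. miR-99b*, miR-125a-5p and miR-99b were at -0.80, -0.74 and -0.72, but 0 of the 7 were called lower under any of the 5 other scalings. With normexp 4 of the 7 were called lower, where the median of all miRNAs tested was -1.17. The values of miR-125a-5p and miR-99b stayed below 0 under all of these settings except no scaling. At day 14 against day 1, 3 were called higher and 2 lower, against 21.1% and 32.6% of the miRNAs tested, with a median of -0.49 against -0.17 over all.

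**Figure D5:**
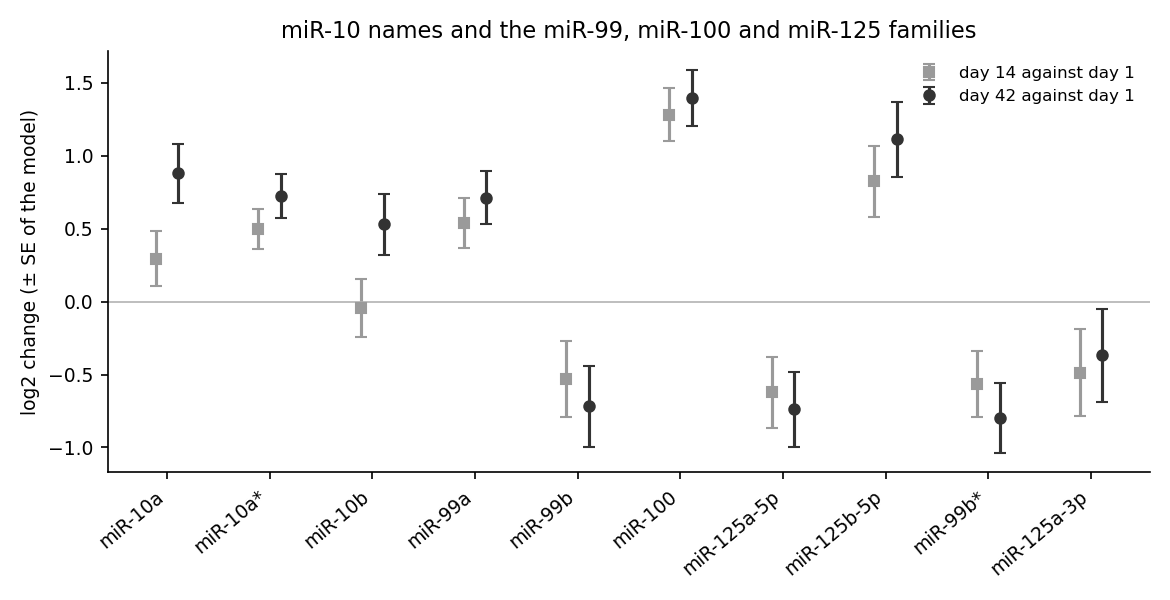
Log2 change against day 1 (vertical axis, ± SE of the model) at day 14 (squares) and day 42 (circles) for the 3 miR-10 names and the 7 tested names of the miR-99, miR-100 and miR-125 families. miR-100, miR-125b-5p, miR-99a, miR-10a and miR-10a* lie above 0 at both ages, each higher at day 42 than at day 14.

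Markers of lung cell types changed over the same ages, where 18.9% of all miRNAs tested were called higher and 42.9% lower. At day 42 against day 1, 3 of 4 endothelial miRNAs were called higher and 0 lower (median 0.77), with a summed scaled signal of 65442 to 88427 on day 42 arrays and 34266 to 51982 on day 1 arrays. All 6 leukocyte miRNAs were called higher (median 1.70), with sums of 13059 to 16286 on day 42 arrays and 5131 to 8884 on day 1 arrays. Of 5 mesenchymal and smooth muscle miRNAs 0 were called higher and 3 lower (median -0.78), with sums of 12355 to 15181 on day 42 arrays and 19363 to 25831 on day 1 arrays. The named examples with the largest changes were miR-222 at 0.99 and miR-126-3p at 0.79 in endothelium, miR-142-5p at 2.35 in leukocytes, and miR-214 at -2.19 in mesenchyme. Of these, miR-222 turned to -0.18 with normexp, and miR-126-3p was at only 0.08 with quantile normalization. The signs of miR-142-5p and miR-214 held under the other scalings and normexp. Of the 6 epithelial miRNAs 1 was called higher and 1 lower, of the 5 of multiciliated cells 3 higher and 2 lower, of the 3 of red blood cells none, and of the 4 tested of striated muscle 1 lower. Over the 5 other scalings and normexp, the calls were 1 to 4 higher in endothelium, 5 or 6 higher in leukocytes, and 0 to 2 higher and 1 to 3 lower in mesenchyme. They were 1 to 4 higher and 0 or 1 lower in epithelium, 2 or 3 higher and 0 to 2 lower in multiciliated cells, 0 to 2 higher in red blood cells, and 0 or 1 lower in striated muscle. No defining marker of endothelium, leukocytes or mesenchyme was at the floor at either age. The part of these cells in the rise of the miR-10 names was not tested.

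Across the 24 arrays, the miRNAs whose log2 signals ran most like miR-10a, among 224 detected on all arrays, were miR-23a (Pearson r = 0.940), miR-203 (0.939), let-7b (0.933), miR-23b (0.918) and miR-150 (0.917). For miR-10b they were miR-425 (0.876), miR-374 (0.854), miR-375 (0.803), miR-23a (0.797) and miR-150 (0.795). With the means of the ages removed, miR-23a and miR-10a still had an r of 0.955 and miR-425 and miR-10b one of 0.876. The correlation of miR-10b with miR-10a was 0.811, and 0.7496 with the age means removed, and that of miR-10a* with miR-10a was 0.679 and 0.427. The points share an array, its RNA and its brightness factor, and the values are given as a description. No such miRNA is named for miR-10a*, which was not detected on all arrays.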

How the data were processed

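Per the labels' protocols, a miRNeasy mini kit gave the total RNA, of which 100 ng took the Cy3 label. Per the file headers and the submitters' processing notes, Agilent Feature Extraction 10.7.1.1 turned the scans into values, and the deposited array files hold intensity values per spot, background-subtracted by that software and not adjusted between arrays. The authors' deposited table of the series holds log2 values of 672 names with the same median, 2.41, in every column, and each column correlated with the log2 total signal of its array at 0.998 or more. How it was scaled and centred is not given in the sources used here, and it served as an alternative.

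Processed signals of the spots not marked as outliers were averaged per probe, the probes of a miRNA were summed, divided by the array's 75th percentile over the 228 miRNAs detected on all arrays, multiplied by 2316, floored at 7.46 (log2 2.90) and taken to log2. One limma 3.58.1 model (R 4.3.3, 24 arrays, 19 residual degrees of freedom) gave the comparisons, with Benjamini-Hochberg adjustment over 322 miRNAs, 2-sided. Mean signals of spots are not used here, so the normexp alternative (offset 50) was run on median spot signals. Differences within an array were tested by exact permutation. The procedure was tested on simulated data. The number of arrays limits the precision.

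The miR-10 names were described in full, and the listed miRNAs were counted, with some named by size of change in some of the lists. The 5 most alike in pattern were named for miR-10a and for miR-10b. These names, lists and rules were chosen with earlier results of these data known. Replicate numbers did not pair the samples: over 46 pairs with the same number the mean correlation of their deviations was -0.03, 18 of them over 0.1. Over 184 pairs with different numbers the mean was 0.01, with 81 of them over 0.1. Alternatives were other scalings and sources, filters, slide, replicate block, array brightness, array weights and leaving out each array.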

Additional observations from a re-analysis of the deposited data

Results flagged for a closer look

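Over the 3 miR-10 names and the 2 differences within an array, 25 groups of arrays of 1 age were checked for an array far from the rest, and 3 had one, where chance alone flags about 1 in 20. For miR-10a at day 7, replicate 4 was highest at 11.54, with the next array at 11.36 and the lowest at 11.29. For miR-10a* at day 7, replicate 5 was lowest at 5.35, with the next at 5.62 and the highest at 5.71. For miR-10b minus miR-10a at day 42, replicate 1 was highest at -2.55, with the next at -3.47 and the lowest at -3.56.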

How the results depend on the processing

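Of 1098 values under alternatives, 975 were counted as unchanged, in direction and, where tested, in their side of the threshold. That count includes values that could not move. Leaving out an array of an age outside a comparison left the difference itself as it was. Values within single slides had no test and were counted by direction and size alone. The rise of miR-10a at day 42 against day 1 was called in every fitted alternative, with values between 0.46 and 1.88 over all settings, with 1.88 when no scaling was used, and between 0.65 and 0.97 when each array in turn was left out. The rise of miR-10a* there kept its call and direction in every fitted alternative except normexp, between 0.61 and 0.80 without each array in turn. The causes of the changes that follow were not tested. Replicate number as a block ended 1 call, that of miR-10a at day 42 against day 14 (0.57, limma adjusted p = 0.0510), and changed no other call of a miR-10 name. The numbers do not pair the samples, since deviations of same-numbered arrays had a mean correlation of -0.03. With no filter on dim miRNAs, 611 mouse names entered the adjustment, and calls were lost for miR-10a (0.58) and miR-10b (0.57) at day 42 against day 14 and for miR-10b at day 42 against day 1 (0.53). Without replicates 1 and 4 of day 42, lost calls were miR-10b at day 42 against day 1 (0.0035) and at day 42 against day 14 (0.045), and miR-10a at day 42 against day 14 (0.31).

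With no scaling, calls were lost at day 42 against day 14 for miR-10a (0.50) and miR-10b (0.49), and gained for miR-10a at day 14 against day 1 (1.38) and day 7 (0.55). Signs turned at day 7 against day 4 for miR-10a (0.19), miR-10a* (0.30) and miR-10b (0.15), and for miR-10b at day 14 against day 1 (1.05, called). The 75th percentile over all names gained calls for miR-10a at day 14 against day 1 (0.60) and day 7 (0.51), and for miR-10a* at day 14 against day 7 (0.45) and day 42 against day 14 (0.60), and turned miR-10b at day 14 against day 1 (0.26). Median scaling gained the call of miR-10a* at day 42 against day 14 (0.46) and turned miR-10b at day 14 against day 1 (0.089).

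Quantile normalization ended the call of miR-10a at day 42 against day 14 (0.40). It gained those of miR-10a* at day 4 against day 1 (0.71), day 14 against day 7 (0.42) and day 42 against day 14 (0.66), and turned miR-10a* at day 7 against day 4 (0.028) and miR-10b at day 14 against day 1 (0.19). The authors' deposited table gained the same 3 calls of miR-10a* (0.72, 0.38 and 0.77 in that order) and turned the same pair of values (0.069 for miR-10a* and 0.12 for miR-10b). For miR-10b minus miR-10a, signs turned with quantile normalization at day 42 against day 1 (0.22), day 14 against day 7 (0.051) and day 42 against day 14 (0.35), and with the deposited table at day 42 against day 1 (0.061) and day 14 (0.30). For miR-10a* minus miR-10a they turned at day 42 against day 1, day 14 against day 7 and day 42 against day 14, to 1.1002, 0.23 and 0.26 with quantile normalization and 1.14, 0.17 and 0.32 with the deposited table.

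Normexp lost the calls of miR-10a (0.57) and miR-10b (0.13) at day 42 against day 14. It turned miR-10a* at day 42 (-1.26, called), day 14 (-0.65) and day 4 (-0.84) against day 1 and at day 42 against day 14 (-0.61), and miR-10b at day 42 (-0.15) and day 4 (-0.36) against day 1. The difference miR-10b minus miR-10a gained a call at day 4 against day 1 (-0.66) and turned at day 14 against day 7 (0.13). The difference miR-10a* minus miR-10a gained calls at day 42 against day 1 (-2.13) and day 14 (-1.18), and turned at day 14 against day 1 (-0.95), day 4 against day 1 (-1.14, called), day 7 against day 4 (-0.11) and day 14 against day 7 (0.30).

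Array brightness as a covariate gained calls for miR-10a at day 14 (0.88) and day 4 (0.48) against day 1 and at day 14 against day 7 (0.38), and for miR-10a* at day 4 against day 1 (0.46). It turned miR-10a at day 7 against day 4 (0.027) and miR-10b at day 14 against day 1 (0.53, called). Without the 5 dimmest arrays, miR-10a* at day 14 against day 1 lost its call (0.40), miR-10a gained one there (0.59), miR-10b turned there (0.15), and miR-10a (0.10) and miR-10b (0.049) turned at day 7 against day 4. The array weights fit stopped before its convergence tolerance was reached. With it miR-10b lost its calls at day 42 against day 1 (0.19) and day 14 (0.10), and miR-10a gained calls at day 14 against day 1 (0.41) and day 7 (0.22). Signs turned there at day 7 against day 4 for miR-10a (0.092), miR-10a* (0.10) and miR-10b (0.0060), and for miR-10b at day 14 (0.081) and day 4 (-0.077) against day 1.

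Within single slides, with 1 or 2 arrays of an age and no test, values moved by more than the SD between arrays. Slide 1 gave 0.46 for miR-10a and a turned -0.10 for miR-10b at day 42 against day 1, -0.53 for miR-10a and -0.57 for miR-10b at day 7 against day 4, and 0.052 for miR-10b at day 42 against day 14. Slide 2 gave 0.93 for miR-10a and 0.86 for miR-10a* at day 14 against day 1, 0.49 for miR-10a* at day 14 against day 7, and 0.17 for miR-10a and -0.18 for miR-10a* at day 42 against day 14. Slide 3 gave 1.502 for miR-10a, 0.94 for miR-10a* and 0.97 for miR-10b at day 42 against day 1, and 1.31, 0.64 and 1.013 for these names in that order at day 42 against day 14.

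Leaving out each array in turn, miR-10a at day 42 against day 14 ranged from 0.36 to 0.68 and lost its call without replicate 4 of day 42 or replicate 4 or 5 of day 14. miR-10b ranged from 0.33 to 0.71 at day 42 against day 1 and from 0.38 to 0.75 at day 42 against day 14. It lost the call against day 1 without replicate 1 or 4 of day 42 or replicate 2 or 3 of day 1, and the call against day 14 without replicate 1 or 4 of day 42 or any of replicates 2 to 5 of day 14. Without a call in any case, miR-10a* at day 7 against day 4 ranged from -0.10 to 0.020, miR-10b at day 14 and day 4 against day 1 from -0.10 to 0.015 and from -0.0080 to 0.16, miR-10b minus miR-10a at day 42 against day 14 from -0.25 to 0.089, and miR-10a* minus miR-10a at day 7 against day 4 from -0.032 to 0.18.

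The count of miRNAs called at day 42 against day 1 was 199 and between 142 and 241 under the alternatives. For day 14 against day 1 it was 173 (54 to 248), for day 4 against day 1 it was 5 (2 to 43), for day 7 against day 4 it was 1 (0 to 7, limma, with 0 to 15 at an unadjusted p under 0.05 in the 6 settings with no call), for day 14 against day 7 it was 101 (9 to 210), and for day 42 against day 14 it was 105 (24 to 168). The upper ends 43, 7, 210 and 168 come from the array weights fit. The low signal of miR-10a* over background limits what its values can show, and with 4 arrays at day 42 a pair of arrays decides the result for miR-10b.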

Other observations

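The Hox cluster miRNA miR-196a was flagged as detected on no array, yet its log2 signal was above the floor of 2.90 on all arrays of day 1, between 3.38 and 5.17, with a mean of 4.085 ± 0.77 (SD, n = 5). The means were 3.799 ± 0.71 at day 4, 3.49 ± 0.55 at day 7 and 2.99 ± 0.19 at day 14 (SD, n = 5 each), and all 4 arrays of day 42 were at the floor. It was not tested, because no array passed the detection flag. Division by a smaller brightness factor raises a dim signal. Those factors were 923 to 2183 at day 1 and 1727 to 4151 at day 42, and their part in these means was not tested.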
